A study of Homo sapiens with 9 samples.

Results

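The mRNAs of 10 angiomotin and Hippo pathway genes were followed across 9 RNA libraries of a human cell line. They are the angiomotins AMOT, AMOTL1 and AMOTL2, the kinases LATS1 and LATS2, the upstream scaffold NF2, the coactivators YAP1 and WWTR1 (the protein TAZ), and the target genes CCN1 and CCN2. They were chosen by symbol, with earlier results of these data known, and AMOT was among them because it was low in the TTC33 knock-down. Each symbol matched 1 row of the count tables, so the members are 10 of the 60664 genes listed. All 10 passed the filter on low counts and were among the 18299 genes tested.

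The study measured RNA after depletion of TTC33 or CCDC97 in HEK293 Flip-In T-Rex cells, a derivative of a human embryonic kidney line that carries a defined site for inserting a transgene and a tetracycline repressor. The miTTC33 group (3 libraries) expressed a microRNA against TTC33, induced by tetracycline, the miCCDC97 group (3 libraries) a microRNA against CCDC97, induced likewise, and the control group (3 libraries) no microRNA. Tetracycline (100 ng/ml, 3 days) was added to the cultures of all groups, which were seeded to reach confluence at the end. The density reached in each culture is not used here, and its part in the results was not tested. The labels do not say whether the libraries of a group came from separate cultures, so the p-values measure the spread between these libraries only. Both knock-down groups express a microRNA and control cells express none, so a difference that both share from control cannot be told apart from an effect of microRNA expression itself.

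The Hippo pathway is a kinase cascade that reads cell density, cell shape and junctions. NF2 (merlin) recruits the LATS kinases to the membrane, where they are activated, and LATS1 and LATS2 phosphorylate YAP and TAZ so that these are kept in the cytoplasm or degraded. Unphosphorylated YAP and TAZ enter the nucleus, bind TEAD transcription factors and switch on genes such as CCN1 and CCN2. Angiomotins are scaffold proteins of tight junctions and actin that bind YAP and TAZ directly, hold them outside the nucleus and bind NF2 and LATS. LATS2, AMOTL2, CCN1 and CCN2 are themselves known YAP targets. Since the products of LATS2 and AMOTL2 act on YAP in turn, the pathway has feedback at the RNA level. In cultured epithelial cells, confluence is known to lower YAP activity. RNA levels, as measured here, do not show phosphorylation or location of these proteins.

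Libraries held 25846816 to 30921816 gene counts in the miTTC33 group, 21764203 to 31801574 in the miCCDC97 group and 31296393 to 36110891 in the control group. TTC33 was at 9.67, 6.41 and 6.16 CPM in miTTC33 libraries, against 37.7, 37.1 and 38.6 CPM in control libraries, and CCDC97 was at 15.8, 15.3 and 15.7 CPM in miCCDC97 libraries, against 60.6, 60.1 and 59.5 CPM in control libraries. These are log2 fold changes of -2.34 ± 0.21 (SE; edgeR adjusted p = 0.000106) and -1.94 ± 0.12 (adjusted p = 1.24e-05). CPM is the count per 1000000 counts of a library scaled with TMM factors. Of 13 genes known in the HEK293 line, 12 averaged at least 1 CPM, and none of the 5 endothelial or 5 immune markers did. Among 5 fibroblast markers, COL1A1 did. The first replicate of both knock-downs differed from the other libraries of its group in how levels ran with GC content. In the lowest GC decile of genes, the median log2 difference from control was 0.02 in replicate 1 of miTTC33 but -0.44 and -0.48 in its replicates 2 and 3. In miCCDC97 it was -0.15 in replicate 1 but 0.16 and 0.15 in replicates 2 and 3. In the highest GC decile the order was reversed, with -0.09, 0.37 and 0.40 in miTTC33 and 0.15, -0.28 and -0.28 in miCCDC97. The members were therefore also tested without these 2 libraries and after removal of each library's trend with GC content and length. Both were taken from the longest annotated transcript of a gene. The part of these trends in other results was not tested.

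Levels per kilobase of exon set the genes beside each other. The length counts all annotated exons of a gene, merged over its transcripts, and ranks and shares of genes depend on that choice. For WWTR1 it is 8413 bases, against 5030 for its longest transcript. In control cells the order was AMOT (47.4 ± 0.424 CPM per kb), AMOTL1 (21.6 ± 0.207), NF2 (15.9 ± 0.242), LATS1 (12.3 ± 0.291), YAP1 (12.3 ± 0.183), WWTR1 (6.65 ± 0.048), CCN1 (5.99 ± 0.254), LATS2 (2.88 ± 0.135), AMOTL2 (1.8 ± 0.092) and CCN2 (0.909 ± 0.105; SD, n = 3 each). LATS1 and YAP1 overlapped between libraries and could not be ordered, while every other neighbouring pair was apart. In both knock-downs AMOTL1 took the first place. In miTTC33 cells AMOTL1 was at 24.9 ± 0.622 CPM per kb and AMOT at 18.5 ± 1.09, and AMOT overlapped NF2 at 17.2 ± 1.46. In miCCDC97 cells AMOTL1 was at 22.5 ± 0.622 and AMOT at 19.7 ± 1.45 CPM per kb (SD, n = 3 each). In those cells LATS2, AMOTL2 and CCN2, the 3 lowest, overlapped each other in turn, and so did CCN1 and WWTR1. Antisense genes share exon bases with AMOTL1, LATS1, YAP1, WWTR1 and CCN2, and the strand setting of the counting is not given in the sources used here. Those antisense genes had between 4 and 129 counts over all 9 libraries, against 933 counts for CCN2, the lowest member.

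**Figure D1:**
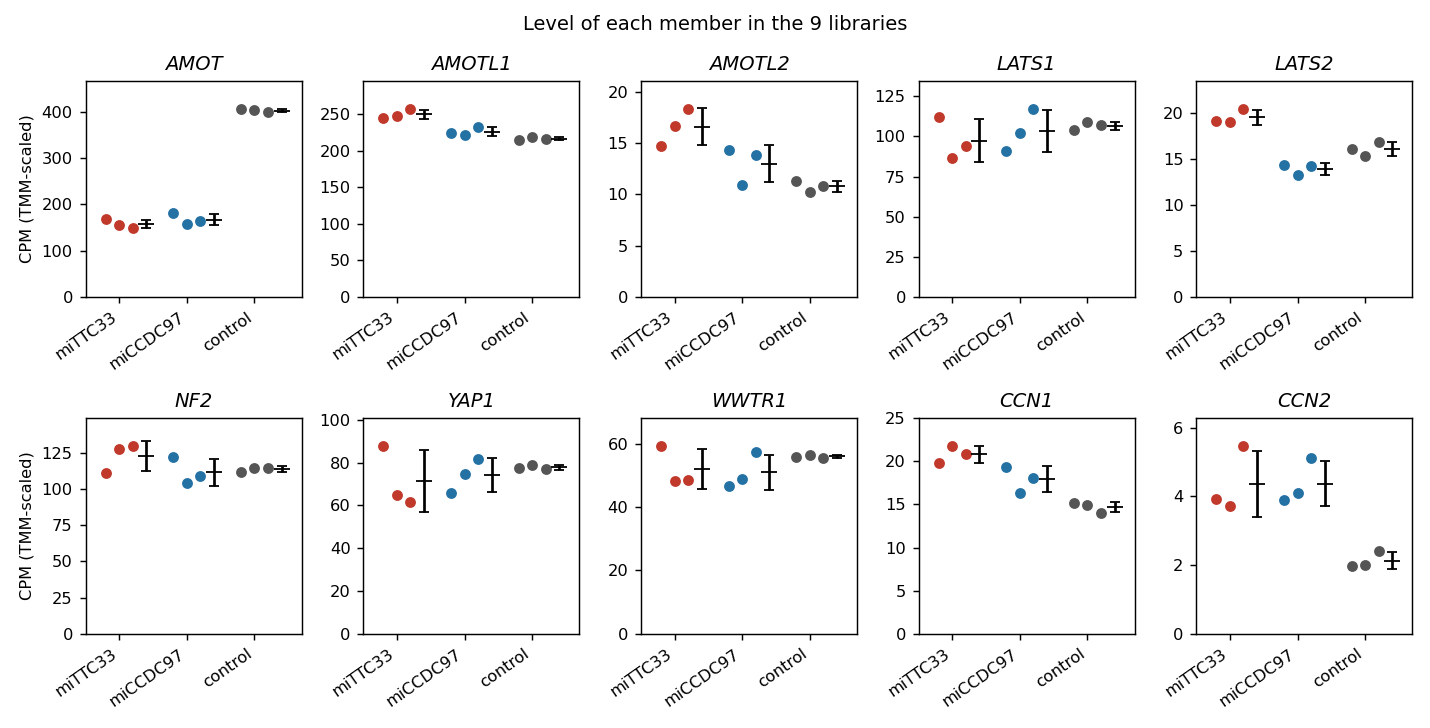
Level of each of the 10 genes in CPM (vertical axis, linear, from 0) in the 3 miTTC33, 3 miCCDC97 and 3 control libraries (points, replicates 1 to 3 from left to right), with the mean and SD beside them. AMOT lies between 150 and 181 CPM in all knock-down libraries and between 399 and 406 CPM in control libraries, and CCN2 lies above the control libraries in both knock-downs.

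AMOT, the founding angiomotin, was the most abundant member in control cells and was at 168, 155 and 150 CPM in miTTC33 libraries, against 406, 404 and 399 CPM in control libraries. In miCCDC97 libraries it was at 181, 157 and 164 CPM. All 6 knock-down libraries thus lay far below all 3 control libraries, and the knock-downs overlapped each other. The log2 fold change was -1.35 ± 0.07 (SE) in miTTC33 against control, a level 2.56-fold lower, and -1.27 ± 0.07 in miCCDC97 against control, 2.41-fold lower. Between the knock-downs it was -0.09 ± 0.07 (miTTC33 against miCCDC97). AMOT was listed for this fall, so these values are a description without a test. Without replicate 1 of both knock-downs it was -1.4 in miTTC33 and -1.33 in miCCDC97, and with the GC and length correction -1.37 and -1.25, close to the values with all libraries and no correction. In these bulk libraries, fewer cells that express a gene and less of its RNA per cell cannot be told apart. In the GENCODE 29 annotation (GRCh38), AMOT spans chrX:112774503-112840815 on the minus strand, AMOTL1 chr11:94706431-94876753 on the plus strand and AMOTL2 chr3:134355874-134375479 on the minus strand.

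AMOTL1, the paralog nearest in level, was higher in miTTC33 cells by a small margin. It was at 245, 248 and 257 CPM in miTTC33 libraries, 224, 221 and 233 CPM in miCCDC97 libraries and 215, 219 and 216 CPM in control libraries, so that the 3 groups did not overlap. The log2 fold change of miTTC33 over control was 0.21 ± 0.06 (edgeR adjusted p = 0.0371), and that of miCCDC97 over control was 0.06 ± 0.06 (adjusted p = 0.597). Of 9 refits without 1 library each, 6 lost it (without replicate 2 or 3 of miTTC33, replicate 3 of miCCDC97, or any control library), with adjusted p between 0.063 and 0.164, and the corrected fold change was 0.14. Between the knock-downs the log2 difference was 0.15 (miTTC33 over miCCDC97; adjusted p = 0.0799), and it passed without replicate 1 of miTTC33 (adjusted p = 0.0406).

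AMOTL2, the third angiomotin and a known YAP target, was the rarest of the family. It was at 14.7, 16.7 and 18.3 CPM in miTTC33 libraries, against 11.3, 10.2 and 10.8 CPM in control libraries, with no overlap. Its log2 fold change there was 0.62 ± 0.12 (edgeR adjusted p = 0.0106). The call was lost without replicate 3 of miTTC33 (0.53, adjusted p = 0.0518) and without replicate 2 of control (0.58, adjusted p = 0.0615), and the GC and length correction left 0.46 (adjusted p = 0.000821). In miCCDC97 libraries AMOTL2 was at 14.3, 10.9 and 13.8 CPM, overlapping control, with a log2 fold change of 0.27 ± 0.12 (adjusted p = 0.249). After the correction that difference was 0.35 (adjusted p = 0.0101). The direct comparison gave 0.35 (miTTC33 over miCCDC97; adjusted p = 0.0591), and 0.11 (adjusted p = 0.343) after the correction.

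The make-up of the family shifted in both knock-downs. Per kilobase, AMOT made up 42.3%, 39.8% and 38.1% of the angiomotin sum in miTTC33 libraries, 46.2%, 43.7% and 43.0% in miCCDC97 libraries and 67.2%, 66.9% and 66.8% in control libraries. AMOTL1 made up 53.9% ± 1.45 in miTTC33, 50.8% ± 1.93 in miCCDC97 and 30.5% ± 0.281 in control, and AMOTL2 6.0% ± 0.66, 4.89% ± 0.507 and 2.55% ± 0.129 in the same order of groups (SD, n = 3 each). These shares contain the AMOT level for which the gene was chosen, and are a description. The sum of the 3 was 46.3 ± 0.44 CPM per kb in miTTC33 and 44.3 ± 1.84 in miCCDC97, against 70.8 ± 0.476 in control.

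**Figure D2:**
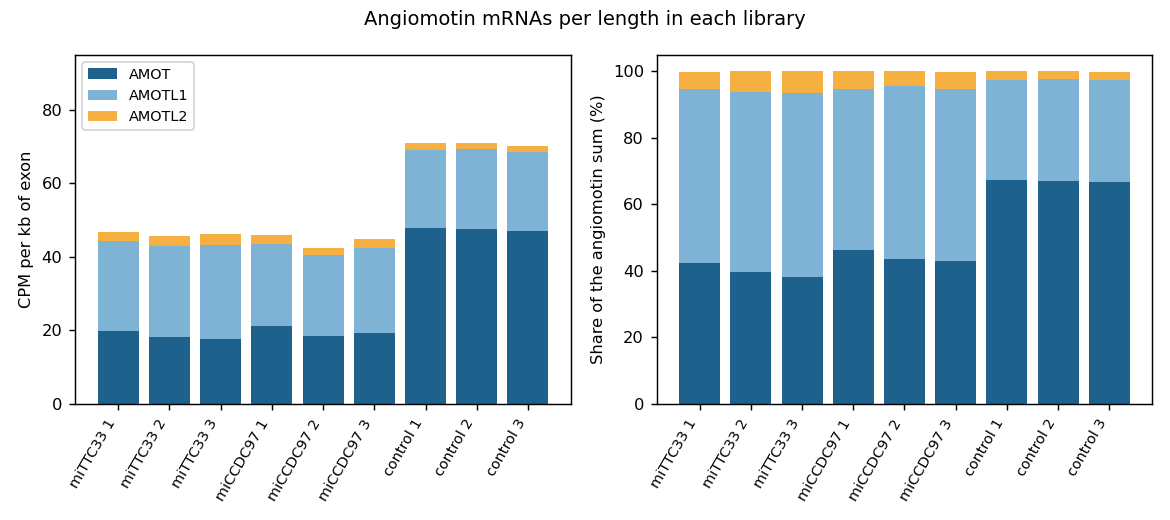
Stacked bars of AMOT, AMOTL1 and AMOTL2 in each of the 9 libraries, as CPM per kilobase of exon (left, from 0) and as a share of their sum in percent (right). AMOT holds 66.8% to 67.2% of the sum in control libraries and 38.1% to 46.2% in the knock-down libraries, while the bars of the knock-downs are shorter on the left.

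Of the 9 members other than AMOT, 4 were called higher and none lower in miTTC33 against control, at an edgeR adjusted p under 0.05. Over all genes tested in that comparison, 11.9% were called, made up of 6.50% higher and 5.44% lower. In miCCDC97 against control, 1 of 9 was called (CCN2, higher), against 4.56% of all genes, made up of 2.07% higher and 2.49% lower. Between the knock-downs, 1 of 9 was called (LATS2, higher in miTTC33), against 21.5% of all genes, made up of 11.3% higher and 10.2% lower. The medians of the 9 log2 fold changes were 0.21, -0.03 and 0.14 in these comparisons, and the median over all genes tested was 0.0 in each. The 2 comparisons with control share the same control libraries and the members were chosen with results known, so the counts are a description.

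Without replicate 1 of both knock-downs, 48.7%, 35.6% and 55.2% of all genes tested were called in miTTC33 against control, miCCDC97 against control and miTTC33 against miCCDC97. Of the 9 members other than AMOT, 9, 3 and 7 were called. In miCCDC97 against control these were CCN2, CCN1 (0.22, adjusted p = 0.0365) and LATS2 (-0.23, adjusted p = 0.0318). Between the knock-downs, miTTC33 was higher than miCCDC97 for LATS2 (0.52, adjusted p = 4.45e-05), AMOTL1 (0.16, adjusted p = 0.00633), AMOTL2 (0.52, adjusted p = 0.000337), NF2 (0.28, adjusted p = 3.8e-05) and CCN1 (0.32, adjusted p = 0.00351). It was lower for YAP1 (-0.31, adjusted p = 9.28e-05) and LATS1 (-0.28, adjusted p = 0.000673). The libraries kept in that setting are those whose GC trends ran in opposite directions in the knock-downs. The part of those trends in these calls was not tested. With the GC and length correction, 27.5%, 19.6% and 28.4% of all genes were called, and 5, 4 and 2 of the 9 members. That correction left 0.35 for LATS2, 0.05 for AMOTL1, 0.11 for AMOTL2 and 0.18 for CCN1 (miTTC33 over miCCDC97, all libraries). For NF2 (-0.1), YAP1 (0.01) and LATS1 (0.08) the sign was the opposite. Of these genes, LATS2 passed.

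**Figure D3:**
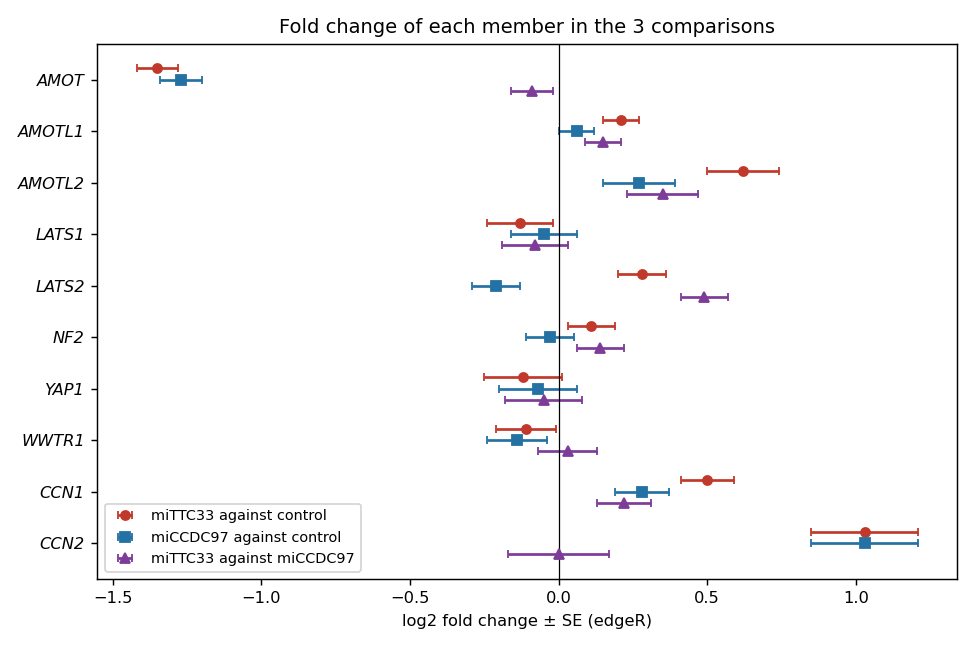
Log2 fold change with its SE (edgeR, horizontal axis) of each of the 10 genes in miTTC33 against control (circles), miCCDC97 against control (squares) and miTTC33 against miCCDC97 (triangles). AMOT stands at -1.35 and -1.27 against control and CCN2 at 1.03 in both, while LATS2 lies right of 0 in miTTC33 and left of 0 in miCCDC97.

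The kinases and their scaffold passed in neither comparison with control in the main edgeR test, with all libraries and no correction. In GENCODE 29, LATS1 spans chr6:149658153-149718256 (minus strand), LATS2 chr13:20973032-21061547 (minus strand) and NF2 chr22:29603556-29698598 (plus strand). LATS1, the more abundant LATS kinase, was at 112, 86.5 and 93.9 CPM in miTTC33 libraries, 91.1, 102 and 117 CPM in miCCDC97 libraries and 104, 109 and 107 CPM in control libraries. The groups overlapped, and the log2 fold changes were -0.13 ± 0.11 (adjusted p = 0.445) in miTTC33 against control and -0.05 (adjusted p = 0.857) in miCCDC97 against control. The knock-down libraries spread more than the control libraries, and replicate 1 was the highest of its group in miTTC33 and the lowest of an even spread in miCCDC97. Without these 2 libraries LATS1 was at -0.24 in miTTC33 (adjusted p = 0.00119), a setting in which 9129 genes were called, and after the GC and length correction it was at -0.01.

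LATS2 lay on opposite sides of control in the knock-downs. It was at 19.1, 19.0 and 20.4 CPM in miTTC33 libraries and 14.3, 13.2 and 14.2 CPM in miCCDC97 libraries, with control libraries between them at 16.1, 15.3 and 16.8 CPM, and no group overlapped another. LATS2 RNA differed directly between the knock-downs, by a log2 fold change of 0.49 ± 0.08 (miTTC33 over miCCDC97; edgeR adjusted p = 0.00338). That call held in all 9 refits without 1 library (adjusted p at most 0.0198), and the corrected value was 0.35 (adjusted p = 0.00132). Against control, neither step passed in the main edgeR test: 0.28 ± 0.08 in miTTC33 (adjusted p = 0.0506) and -0.21 ± 0.08 in miCCDC97 (adjusted p = 0.177). The miTTC33 value did pass after the GC and length correction (0.19, adjusted p = 0.0391) and without replicate 1 of either knock-down (adjusted p = 0.0248 and 0.0407). It also passed under the DESeq2 Wald test (adjusted p = 0.0285) and, in edgeR, with a filter on a mean of 5 CPM (adjusted p = 0.0405). With the R12 and U count tables of each sample summed, it passed too (edgeR adjusted p = 0.0393). In 12 of the 20 alternatives the miTTC33 value did not pass, among them 7 of the 9 refits without 1 library. The others include edgeR fits with replicate number as a block (adjusted p = 0.104) and with no filter on low counts (adjusted p = 0.21). LATS2 made up 23.8% ± 2.54 of the LATS sum per kilobase in miTTC33 and 17.4% ± 1.9 in miCCDC97, against 19.0% ± 0.878 in control (SD, n = 3 each).

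NF2, the tumour suppressor merlin, passed in no comparison with all libraries and no correction. It was at 111, 128 and 130 CPM in miTTC33 libraries, 122, 104 and 109 CPM in miCCDC97 libraries and 112, 115 and 115 CPM in control libraries, which overlapped. The log2 fold changes were 0.11 (adjusted p = 0.378) and -0.03 (adjusted p = 0.898) against control, and each changed sign with the GC and length correction (-0.04 and 0.06). The miTTC33 value was 0.18 (adjusted p = 0.00119) without replicate 1 of both knock-downs.

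Neither coactivator passed in any comparison with all libraries and no correction. YAP1 spans chr11:102110461-102233423 (plus strand) and WWTR1 chr3:149517235-149736714 (minus strand). YAP1 was at 87.8, 64.7 and 61.5 CPM in miTTC33 libraries, 65.7, 74.8 and 81.9 CPM in miCCDC97 libraries and 77.3, 79.0 and 76.8 CPM in control libraries. The log2 fold changes against control were -0.12 ± 0.13 in miTTC33 (adjusted p = 0.54) and -0.07 in miCCDC97 (adjusted p = 0.809). In miTTC33 the 3 libraries fell on both sides of control: replicate 1 was above and replicates 2 and 3 below. Without replicate 1 of miTTC33 the fold change was -0.3 (adjusted p = 0.0174), and after the GC and length correction it was -0.07 (adjusted p = 0.525).

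WWTR1, which encodes TAZ, was at 59.3, 48.2 and 48.4 CPM in miTTC33 libraries, 46.7, 48.7 and 57.3 CPM in miCCDC97 libraries and 55.9, 56.4 and 55.6 CPM in control libraries, again with replicate 1 of miTTC33 the highest of its group. Its log2 fold changes were -0.11 ± 0.10 (adjusted p = 0.507) and -0.14 (adjusted p = 0.492) against control. Without replicate 1 of both knock-downs the miTTC33 value was -0.21 (adjusted p = 0.0053), and it was 0.00 after the GC and length correction. The correction brought WWTR1 past the threshold in the other comparisons, at -0.17 in miCCDC97 against control (adjusted p = 0.0423) and 0.18 in miTTC33 over miCCDC97 (adjusted p = 0.0291). YAP1 made up 64.5% ± 1.75 of the per-kilobase sum of the pair in miTTC33, 66.0% ± 1.03 in miCCDC97 and 65.0% ± 0.153 in control (SD, n = 3 each). The miTTC33 libraries lay on both sides of the control libraries, and the miCCDC97 libraries lay just above them, at 65.3%, 67.2% and 65.6%, against 64.9%, 65.2% and 64.9% in control.

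CCN1 and CCN2, the target genes, lay above every control library in all 6 knock-down libraries. CCN1 spans chr1:85580761-85583962 (plus strand) and CCN2 chr6:131948176-131951373 (minus strand). TEAD factors bind the motif GGAATG, and the RefSeq windows upstream of the starts (GRCh38.p14) of CCN2, of ANKRD1 and THBS1, which are further YAP and TAZ targets, and of 1 of the 2 starts of AMOTL2 hold it. They are shown as the searched windows of genes called higher that hold the motif. The windows of AMOTL1 and MYOF, also called higher, hold none. Beside the members, windows were looked up only for ANKRD1, MYOF and THBS1, targets called higher in miTTC33. Those of the other genes in the lists below, called or not, were not looked up, so the motif cannot be tied to the calls. Each is the 250 bases before the start, read on the transcribed strand, with GGAATG or its reverse complement CATTCC in capitals.
CCN2, chr6:131951373-131951622, minus strand: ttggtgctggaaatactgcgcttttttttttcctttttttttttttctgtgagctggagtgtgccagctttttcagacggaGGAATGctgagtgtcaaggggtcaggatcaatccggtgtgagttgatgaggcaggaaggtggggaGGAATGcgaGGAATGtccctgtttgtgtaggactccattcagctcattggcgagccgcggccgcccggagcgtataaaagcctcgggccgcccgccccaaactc
ANKRD1, chr10:90921088-90921337, minus strand: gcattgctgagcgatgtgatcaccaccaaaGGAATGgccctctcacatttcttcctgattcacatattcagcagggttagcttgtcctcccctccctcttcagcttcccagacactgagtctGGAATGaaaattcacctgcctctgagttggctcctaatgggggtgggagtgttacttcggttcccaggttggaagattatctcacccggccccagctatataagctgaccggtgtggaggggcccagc
THBS1, chr15:39580829-39581078, plus strand: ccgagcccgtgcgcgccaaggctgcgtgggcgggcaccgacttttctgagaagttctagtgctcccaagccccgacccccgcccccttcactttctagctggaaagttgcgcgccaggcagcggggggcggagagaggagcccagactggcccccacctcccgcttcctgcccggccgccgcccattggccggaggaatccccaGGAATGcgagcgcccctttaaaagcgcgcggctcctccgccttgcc
AMOTL2, chr3:134374448-134374697, minus strand: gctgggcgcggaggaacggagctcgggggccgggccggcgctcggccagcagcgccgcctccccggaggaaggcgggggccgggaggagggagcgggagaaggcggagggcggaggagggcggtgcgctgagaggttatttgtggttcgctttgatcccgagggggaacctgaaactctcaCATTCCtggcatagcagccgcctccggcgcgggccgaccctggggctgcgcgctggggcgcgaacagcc
The 3 motifs of CCN2 begin 169, 104 and 95 bases before its start, those of ANKRD1 220 and 128 bases before, that of THBS1 46 bases before, and that of AMOTL2 lies on the other strand 69 bases before. GGAATG was searched on both strands of the 300 bases from 250 before to 50 after each start. Windows were found for 9 of the 10 members (not CCN1), 13 in all, and 4 held the motif, those of CCN2, AMOTL2, YAP1 and LATS2. Among all 35116 windows of the table, 14.0% held it. A match is not a measured binding site.

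CCN2 (connective tissue growth factor) is a secreted matricellular protein and a standard readout of YAP activity. It was at 3.92, 3.71 and 5.47 CPM in miTTC33 libraries and 3.89, 4.10 and 5.13 CPM in miCCDC97 libraries, against 1.96, 2.01 and 2.41 CPM in control libraries. The knock-downs overlapped each other and neither overlapped control. The log2 fold change was 1.03 ± 0.18 in each comparison with control, 2.05-fold in miTTC33 (edgeR adjusted p = 0.00609) and 2.04-fold in miCCDC97 (adjusted p = 0.0111). The miTTC33 call held in all 9 refits without 1 library. The miCCDC97 call was lost without replicate 1 of control (0.98, adjusted p = 0.0717) and without replicate 2 of control (0.99, adjusted p = 0.0682). The difference between the knock-downs was 0.00 ± 0.17 (adjusted p = 0.991), so its interval of 2 SE, from -0.34 to 0.35, leaves room for a difference of about that size. Both values against control were 1.10 without replicate 1 of both knock-downs. The counts behind these values are low, 71 to 143 per library.

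CCN1 (CYR61), a related secreted protein, rose in miTTC33 cells. It was at 19.8, 21.8 and 20.9 CPM in miTTC33 libraries and 19.3, 16.3 and 18.1 CPM in miCCDC97 libraries, against 15.2, 14.9 and 14.0 CPM in control libraries. Each knock-down lay above control without overlap. The log2 fold change was 0.50 ± 0.09 in miTTC33 (edgeR adjusted p = 0.00685), which held in all 9 refits without 1 library. It was 0.28 ± 0.09 in miCCDC97 (adjusted p = 0.106), which passed after the GC and length correction at the same size (adjusted p = 0.0156). The direct difference was 0.22 (miTTC33 over miCCDC97; adjusted p = 0.102). CCN2 made up 18.0% ± 3.28 of the CCN1 and CCN2 sum per kilobase in miTTC33, 20.4% ± 2.74 in miCCDC97 and 13.2% ± 1.83 in control (SD, n = 3 each).

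Further YAP and TAZ target genes, a list of 24 of which 22 were tested, held 5 genes called higher and none lower in miTTC33, and 2 higher and none lower in miCCDC97. The background shares of genes called higher were 6.50% and 2.07%. The median log2 fold change of the list was 0.14 in miTTC33 and 0.11 in miCCDC97, and 12 and 14 of the 22 were positive, and 17 and 20 of them did not pass. THBS1 (thrombospondin 1, a secreted glycoprotein) was at 5.27, 4.2 and 5.39 CPM in miTTC33 and 4.92, 5.81 and 6.05 CPM in miCCDC97, against 2.82, 2.86 and 2.57 CPM in control. Both knock-downs lay above control without overlap, with log2 fold changes of 0.85 ± 0.14 (adjusted p = 0.00424) and 1.02 ± 0.14 (adjusted p = 0.00291), each holding in all 9 refits without 1 library. MYOF (myoferlin, a membrane repair protein) was at 3.47, 2.67 and 3.56 CPM in miTTC33 and 3.43, 3.37 and 4.16 CPM in miCCDC97, against 1.55, 1.82 and 2.03 CPM in control. Its log2 fold changes were 0.85 ± 0.17 (adjusted p = 0.0108) and 1.01 ± 0.17 (adjusted p = 0.00714). Those calls were lost without replicate 3 of miTTC33, replicate 1 of control or replicate 2 of control (adjusted p of 0.0501 to 0.0647) in miTTC33, and without replicate 1 of control (adjusted p = 0.053) in miCCDC97.

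ANKRD1 (a cardiac ankyrin repeat protein) was rare, at 0.739, 0.797 and 0.88 CPM in miTTC33 and 0.814, 0.628 and 0.629 CPM in miCCDC97, against 0.193, 0.408 and 0.444 CPM in control. Its log2 fold change was 1.21 ± 0.3 in miTTC33 (adjusted p = 0.0265, lost in 5 of 9 refits) and 1.0 ± 0.31 in miCCDC97 (adjusted p = 0.093). CCDC80, a secreted matrix protein, was at 8.26, 8.01 and 8.45 CPM in miTTC33 and 6.93, 7.2 and 6.87 CPM in miCCDC97, against 5.64, 6.12 and 6.66 CPM in control. Its log2 fold change was 0.43 ± 0.1 in miTTC33 (adjusted p = 0.02, lost in 4 of 9 refits) and 0.19 in miCCDC97 (adjusted p = 0.299). GADD45A, a growth arrest gene named after its values were seen because the list's count includes it, was at 0.37 ± 0.1 on the same scale in miTTC33 (adjusted p = 0.0436, lost in 7 of 9 refits).

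**Figure D4:**
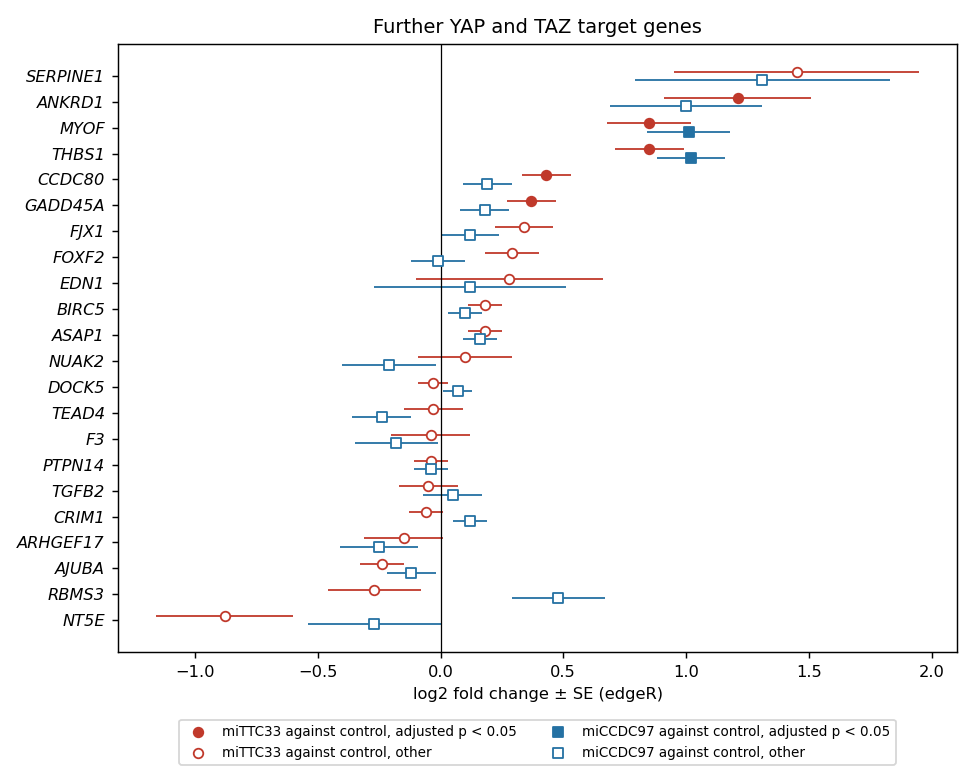
Log2 fold change with its SE (edgeR, horizontal axis) of the 22 further YAP and TAZ target genes tested, ordered by miTTC33 against control (circles), with miCCDC97 against control (squares). Filled symbols passed an adjusted p of 0.05. THBS1 and MYOF are filled in both comparisons and ANKRD1, CCDC80 and GADD45A in miTTC33 alone, while most of the list lies near 0.

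A list of 17 genes held the core Hippo kinases, LATS-related kinases and adaptors. Of these, 3 were called higher and 1 lower in miTTC33, and 1 higher and 1 lower in miCCDC97, with medians of -0.03 and -0.05. For this list and those that follow, the shares over all genes tested were 6.50% higher and 5.44% lower in miTTC33, and 2.07% higher and 2.49% lower in miCCDC97. In miTTC33, 1 gene called in a direction in a list of 15, 17, 20, 21 or 23 genes tested is near those shares. MAP4K4, a kinase that phosphorylates LATS, fell in miCCDC97 to 113, 110 and 121 CPM, against 161, 154 and 158 CPM in control (log2 fold change -0.46 ± 0.06, adjusted p = 0.00333, held in all 9 refits without 1 library). It was at 150, 152 and 156 CPM in miTTC33 (adjusted p = 0.646). STK38L, a LATS-related kinase, fell in miTTC33 to 48.5, 37.4 and 34.0 CPM, against 68.4, 68.8 and 67.8 CPM in control. Its log2 fold change was -0.77 ± 0.15 (adjusted p = 0.0106), and -0.45 after the GC and length correction. The call was lost without replicate 2 of miTTC33 (adjusted p = 0.0535). MAP4K2 (0.54 ± 0.14, adjusted p = 0.0301) and MINK1 (0.52 ± 0.15, adjusted p = 0.0478), kinases of the same family as MAP4K4, were higher in miTTC33, and the correction left 0.41 and 0.29. STK38 in miTTC33 (0.26, adjusted p = 0.0494) and STK3, the kinase MST2, in miCCDC97 (0.36, adjusted p = 0.0489) were named after their values were seen. Calls for MAP4K2 were lost in 5 of 9 refits, and those for MINK1, STK38 and STK3 in 7 of 9.

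Of 23 upstream regulators tested (28 listed), 1 was called higher and 1 lower in miTTC33, and 1 higher in miCCDC97. FAT4, an atypical cadherin, was at 75.7, 76.0 and 78.5 CPM in miCCDC97, against 57.8, 59.8 and 58.0 CPM in control (0.39 ± 0.06, adjusted p = 0.00675), and that call was lost without replicate 1 or 3 of control (adjusted p = 0.0624 and 0.055). In miTTC33 FAT4 was at 69.6, 67.0 and 66.5 CPM (0.21, adjusted p = 0.0529). RASSF5, a scaffold of the MST kinases, was called lower in miTTC33 (-0.4 ± 0.08, adjusted p = 0.0122), a call lost without any 1 of the control libraries (adjusted p of 0.0555 to 0.0658). In miCCDC97 RASSF5 was at 28.6, 25.1 and 25.4 CPM, also below control at 32.0, 33.1 and 33.1 CPM (-0.31 ± 0.08, adjusted p = 0.0551). TP53BP2, which brings YAP and TAZ to phosphatases and junctions, was called higher in miTTC33 (0.23, adjusted p = 0.0371, lost in 7 of 9 refits).

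Of 21 angiomotin partners and ubiquitin ligases, 2 were called higher and 1 lower in miTTC33 and none in miCCDC97. ARHGAP17 (RICH1), a protein that binds AMOT at tight junctions, was at 107, 121 and 130 CPM in miTTC33, against 87.0, 82.4 and 85.1 CPM in control (0.49 ± 0.08, adjusted p = 0.00451, held in all 9 refits). Of the NEDD4-family ligases, some of which ubiquitinate AMOT, WWP2 was called higher (0.43, adjusted p = 0.0232) and NEDD4 lower (-0.38, adjusted p = 0.0484) in miTTC33. The correction left 0.26 and -0.19, and the calls were lost in 5 and 7 of 9 refits.

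Of 20 genes of the STRIPAK phosphatase complex and LIMD1 family, which restrain LATS or MST, 1 was called lower in miTTC33 and none in miCCDC97. SIKE1, a STRIPAK subunit, was at 54.7, 34.7 and 31.3 CPM in miTTC33 and 79.9, 101 and 104 CPM in miCCDC97, against 97.3, 98.8 and 90.8 CPM in control. Its log2 fold change was -1.25 ± 0.18 in miTTC33 (adjusted p = 0.00201), held in all 9 refits, and -0.01 in miCCDC97 (adjusted p = 0.98). Among 15 TEAD factors and cofactors tested (16 listed), 2 were called higher and 1 lower in miTTC33, and 1 higher and 1 lower in miCCDC97. VGLL4, which competes with YAP for TEAD, was higher in both (0.37 ± 0.08, adjusted p = 0.0177, and 0.35 ± 0.08, adjusted p = 0.0359), calls lost in 5 and 6 of 9 refits. RUNX1, a transcription factor that can bind YAP and TAZ, was lower in both: -0.26 (adjusted p = 0.0412, lost in 5 of 9 refits) and -0.51 ± 0.07 (adjusted p = 0.00384, held in all 9). WBP2, a coactivator that binds YAP, was higher in miTTC33 (0.48, adjusted p = 0.025, lost in 5 of 9 refits), and the correction left 0.31. Of the CCN family beside CCN1 and CCN2, 1 of 4 genes was tested, and it was not called in either comparison. PTPN14, PATJ, PALS1, AJUBA and TEAD4 stand in 2 lists each.

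**Figure D5:**
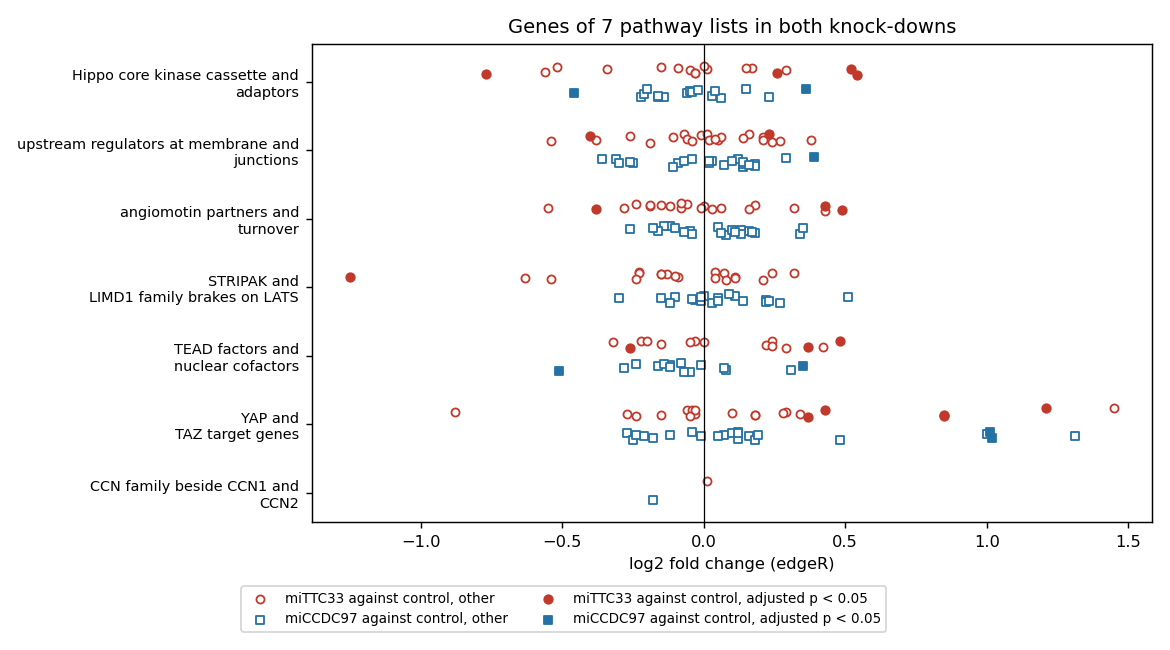
Log2 fold change (edgeR, horizontal axis) of every tested gene of 7 lists, in miTTC33 against control (circles) and miCCDC97 against control (squares), with filled symbols for an adjusted p under 0.05 and a small vertical spread for legibility. Filled symbols of the target genes all lie right of 0, those of the kinases lie on both sides, and SIKE1 stands farthest left at -1.25.

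The genes whose levels ran most like those of AMOT, CCN1 and CCN2 were picked among 11339 genes by Pearson's r of log2 CPM over the 9 libraries, which share their depth scaling and their group means. Nearest to AMOT were APP (r = 0.9869), ULK2 (0.9808) and BACE2 (0.9751). APP averaged 522 ± 7.26 CPM in miTTC33 and 515 ± 12.3 in miCCDC97, against 602 ± 2.91 in control, and ULK2 averaged 10.8 ± 0.599 and 10.3 ± 0.228, against 17.6 ± 0.189 (SD, n = 3 each). Nearest to CCN1 were MTMR3 (0.9688), FOSL2 (0.9666) and ALOX12P2 (0.9662). FOSL2, an AP-1 factor, averaged 32.8 ± 1.18 CPM in miTTC33 and 26.1 ± 2.56 in miCCDC97, against 22.9 ± 0.685 in control. Nearest to CCN2 were ERG28 (0.9895), SEC31A (0.9842) and LANCL2 (0.9778). SEC31A averaged 138 ± 6.75 CPM in miTTC33 and 138 ± 5.8 in miCCDC97, against 114 ± 3.32 in control.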

How the data were processed

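Total RNA of 9 libraries (3 miTTC33, 3 miCCDC97, 3 control) was sequenced. The authors deposited raw counts per gene, not normalized. The submitters' processing notes name Trimmomatic 0.39, HISAT2 (no version), HTSeq 2.0.1 and GRCh38. The annotation release, the strand setting and the meaning of the 2 tables per sample (R12 and U) are not stated there or in the labels. The R12 counts were used. Their rows that name no gene held 33.4% to 57.9% of a library's counts and did not enter library sizes or tests.

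The main test was edgeR 4.0.16 under R 4.3.3 (filterByExpr, TMM, quasi-likelihood, 1 term per group, all 9 libraries, 6 residual degrees of freedom). Two-sided p-values were adjusted by Benjamini-Hochberg across the 18299 genes kept (threshold 0.05). The SE of a log2 fold change was derived from its F statistic. On data simulated for miTTC33 against control, 77.5% of genes raised 2-fold were called. Alternatives were DESeq2 1.42.0, other scalings and filters, R12 and U counts summed, removal of trends with GC content and length (mgcv 1.9.3), the replicate block, and each library left out. Exon lengths, GC content and coordinates are from GENCODE 29, an annotation that need not be the authors'. Promoters are from RefSeq (GRCh38.p14). Replicate numbers were not used to pair the libraries in the main test.

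The members and lists were chosen with earlier results of these data known. Genes named beside the members are the up to 4 per list with the smallest adjusted p past the threshold, and the 3 genes nearest in correlation to AMOT, CCN1 and CCN2 with a mean of at least 5 CPM. AMOT got no test.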

Additional observations from a re-analysis of the deposited data

How the results depend on the processing

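Counts of calls moved widely with the processing, and the members' fold changes moved to differing degrees. In miTTC33 against control, AMOT stayed between -1.4 and -1.33 and CCN1 between 0.46 and 0.54. YAP1 ran from -0.3 to -0.04 there, and LATS1 from -0.24 to -0.01. In miTTC33 against control, 2186 genes were called. That became 3821 with no filter on low counts, 756 with the replicate block, 4960 with the GC and length correction, 4515 with that correction and the block, and 552 to 6512 with 1 library left out. In miCCDC97 against control, 835 became 1369 with no filter, 1471 with the DESeq2 test, 1339 in a fit of the 2 groups only, 240 with the block, 3541 with the correction, 3172 with the correction and the block, and 203 to 1981 with 1 library left out. Between the knock-downs, 3943 became 1479 in a fit of the 2 groups only, 1857 with the block, and 1528 to 7767 with 1 library left out. Without replicate 1 of both knock-downs, a setting chosen after seeing the data, the counts were 9129, 6675 and 10362, or 48.7%, 35.6% and 55.2% of genes tested, and 10, 4 and 7 of the 10 members were called.

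The counts of members called include AMOT, whose call against control the choice of members fixes, and are a description. They were 5, 2 and 1 (4, 1 and 1 of 9 without AMOT), beside 11.9%, 4.56% and 21.5% of all genes. With 1 library left out they ranged from 3 to 7, from 1 to 2 and from 1 to 5. The shares of all genes called in those refits ran from 2.96% to 34.9%, 1.09% to 10.6% and 8.17% to 41.6%. In miCCDC97 the count was 1 with a filter on a mean of 5 CPM (CCN2 is below it), 5 with the correction and 4 with the correction and the block. The shares of all genes there were 7.11%, 19.6% and 17.6%. Between the knock-downs the count was 2 with no filter, 3 with the 5 CPM filter, 3 with DESeq2, and 2 with the correction, with or without the block. Beside these counts, 13.9%, 30.7%, 25.5% and 28.4% of all genes were called, and 26.2% with the correction and the block. With the block the AMOTL1 call in miTTC33 was lost (adjusted p = 0.101). Deviations of same-numbered libraries from their group means had correlations of -0.504, -0.114 and -0.139 between the knock-downs. The correlations were 0.0729, 0.0401 and 0.0677 between miTTC33 and control, and -0.0304, 0.0936 and 0.0125 between miCCDC97 and control. The deviations include the GC trends of the knock-down libraries, so these values cannot decide whether the numbers pair libraries.

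Signs turned only for members whose fold change in the main test was small, at most 0.14 in size (NF2 between the knock-downs). Several of these values were larger and passed in edgeR without replicate 1 of both knock-downs. Between the knock-downs, these were NF2 (0.28, adjusted p = 3.8e-05), YAP1 (-0.31, adjusted p = 9.28e-05) and LATS1 (-0.28, adjusted p = 0.000673). With the correction, with or without the block, NF2 was at -0.04 in miTTC33, 0.06 in miCCDC97 and -0.10 between the knock-downs; WWTR1 was at 0.00 in miTTC33; LATS1 was at 0.08 and YAP1 at 0.01 between the knock-downs. CCN2 between the knock-downs was at -0.07 with the correction, -0.08 with the correction and the block, and -0.01 with DESeq2 size factors, the DESeq2 test or the block. Without replicate 1 of both knock-downs, LATS1 was at 0.03 and YAP1 at 0.01 in miCCDC97, and WWTR1 at -0.13 between the knock-downs. With 1 library left out, LATS1 ranged from -0.15 to 0.04, NF2 from -0.10 to 0.01 and YAP1 from -0.15 to 0.01 in miCCDC97. Between the knock-downs LATS1 ranged from -0.19 to 0.01, YAP1 from -0.23 to 0.04, WWTR1 from -0.07 to 0.12 and CCN2 from -0.19 to 0.12. The causes of these moves were not tested. Low counts limit the precision of CCN2 and ANKRD1 most.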

Other observations

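The smaller count tables marked U, whose meaning is not stated, gave the same genes a second set of values, as counts per 1000000 gene counts of the U table. Above, these counts enter only the alternative in which R12 and U counts were summed. AMOT was at 174, 160 and 154 CPM in miTTC33 and 196, 159 and 161 CPM in miCCDC97, against 470, 468 and 437 CPM in control. CCN1 was at 27.3, 24.9 and 25.5 CPM in miTTC33 and 18.4, 20.8 and 20.5 CPM in miCCDC97, against 15.0, 19.3 and 18.0 CPM in control, so that miTTC33 lay above control and miCCDC97 overlapped it. CCN2 was at 3.27, 5.79 and 3.7 CPM in miTTC33 and 3.29, 2.19 and 2.57 CPM in miCCDC97, against 1.62, 1.23 and 1.02 CPM in control, with both knock-downs above control at a lowest count of 3. AMOTL2, called higher in miTTC33 above, overlapped control there, at 11.3, 12.5 and 8.22 CPM in miTTC33, against 13.3, 7.18 and 6.78 CPM in control. LATS2 was at 15.6, 21.2 and 22.2 CPM in miTTC33 and 12.5, 8.04 and 9.62 CPM in miCCDC97, against 8.09, 13.7 and 14.6 CPM in control. Its miTTC33 libraries lay above both other groups, and its miCCDC97 libraries overlapped control. AMOTL1 in miTTC33, at 240, 271 and 265 CPM, lay above control, at 205, 222 and 213 CPM. The other 4 members (LATS1, NF2, YAP1 and WWTR1) overlapped control in both knock-downs. The U values come from the same samples and are not further replicates.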
